A study of Mus musculus with 9 samples.

Results

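This report describes 10 mouse genes of the brain vessel wall and of apelin signaling in the cerebellum of SCA3 (spinocerebellar ataxia type 3) transgenic mice. They are the apelin ligand gene Apln, its receptor gene Aplnr, the endothelial genes Cldn5, Pecam1, Flt1, Cdh5, Slc2a1 and Abcb1a, and the pericyte genes Pdgfrb and Rgs5. Each was found by matching its symbol to the Ensembl identifiers of the count table, and all 10 were among the 37816 genes listed there. The set was chosen by gene name with earlier results of the same libraries, level differences between 15Q and 84Q among them, already known, so their values are a description, and their p-values come from a fit across all genes and are not independent evidence. RNA was sequenced from whole cerebellar tissue of 18-month-old mice on a C57BL/6 background, with 3 libraries in each of 3 groups. The 15Q control mice and the 84Q mice both carried the human ATXN3 gene as a yeast artificial chromosome (YAC) transgene, with 15 or 84 CAG repeats, and no group without a transgene was analysed here. The 84Q+IGF-1 mice carried the 84-repeat transgene and received 50 mg/kg of IGF-1, a growth factor, by weekly intraperitoneal injection from 9 to 18 months of age. By the study's methods the 15Q and 84Q mice received the buffer PBS on the same schedule, while their sample labels read untreated. The 15Q line came from another laboratory and the 84Q line from a commercial repository, so line of origin and repeat length cannot be told apart.

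Brain capillaries are lined by endothelial cells that are sealed to each other by tight and adherens junctions and that carry transporters for glucose and drugs, which together form the blood-brain barrier. Pericytes sit on the outer side of the endothelium and depend on platelet-derived growth factor signaling for their recruitment. Apelin is a secreted peptide cut from a longer precursor, it binds a G protein-coupled receptor, and its gene is known as a marker of the tip cells that lead new vessel sprouts. In whole tissue, fewer cells of a type and less RNA per cell cannot be told apart.

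Apln was higher in 84Q than in 15Q cerebellum by 1.5-fold, and it was the only one of the 10 genes that passed the threshold used here, an adjusted p under 0.1 together with a change of at least 1.5-fold. Across all 19353 genes tested, 2.14% passed the same threshold in that comparison, 0.238% as higher and 1.90% as lower. None of the 10 genes passed in 84Q+IGF-1 against 15Q, where 2.25% of all genes passed, 0.186% as higher and 2.06% as lower. None passed in 84Q+IGF-1 against 84Q, where edgeR called 0 of 19353 genes, 905 genes had an unadjusted p under 0.05 and DESeq2 called 6 genes, or 0.0159%. The general endothelial genes Pecam1 and Flt1 differed little between groups, with 95% confidence intervals in 84Q against 15Q from -0.25 to 0.12 and from -0.27 to 0.07 on the log2 scale.

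The 9 libraries held between 17482654 and 58269196 counts, and the 2 deepest were 15Q replicates 2 and 3. Granule cell and Purkinje cell markers summed to between 3975 and 4561 and between 5540 and 6261 CPM in the 9 libraries, where CPM is the count scaled to the same library total in all libraries. Markers of the choroid plexus, the epithelium that makes cerebrospinal fluid, summed to 521 and 508 CPM in 15Q replicates 1 and 3 and to 1071 CPM in 84Q replicate 2, against 29.1 to 70.7 CPM in the other 6 libraries. These 3 libraries therefore stood apart, and calls that rest on them are given with and without them. Markers of tissues outside the brain were also higher in all 3 15Q libraries. Skeletal muscle genes summed to between 12 and 18.7 CPM in 15Q and to at most 2.48 CPM in the other 6 libraries, epidermis genes to between 14.8 and 25.5 CPM and at most 8.38 CPM, and intestinal epithelium genes to between 22.2 and 34.5 CPM and at most 5.93 CPM. Xist counts marked replicates 2 and 3 of 15Q, the first of 84Q and replicate 2 of 84Q+IGF-1 as female, and Y-linked counts marked the other 5 libraries as male. The labels number the libraries within a group and give each its own identifier, without stating that each came from a separate mouse. The paper describes metabolic models that were built for each mouse from its RNA-seq data. The p-values measure the spread between these libraries.

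Apln (ENSMUSG00000037010.7) lies on the minus strand of the X chromosome at chrX:48025146-48034853 of GRCm38, and its reading frame of 77 codons is spread over exons 1 and 2 of 3 exons. The last 36 codons, at chrX:48028302-48028409 in exon 2, are shown because they encode the part of the precursor from which the peptide hormone is cut. Capitals mark the last 13 codons, which encode apelin-13, the short form that binds the receptor. The sequence is the GENCODE coding strand.
Apln coding end: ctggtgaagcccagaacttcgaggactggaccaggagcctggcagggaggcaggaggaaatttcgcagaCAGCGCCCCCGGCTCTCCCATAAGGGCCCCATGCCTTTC

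Apln was read at 13.8, 18.2 and 14.7 CPM in the 15Q libraries, at 24.6, 20.6 and 25.1 CPM in the 84Q libraries and at 22.6, 17.4 and 21.7 CPM in the 84Q+IGF-1 libraries. Every 84Q library lay above every 15Q library, while 84Q+IGF-1 replicate 2 lay below 15Q replicate 2. The group means were 15.6 ± 2.34, 23.4 ± 2.49 and 20.6 ± 2.79 CPM (SD, n = 3). The log2 fold change of 84Q against 15Q was 0.59 with a standard error of 0.13, a 95% confidence interval of 0.30 to 0.87 and an adjusted p of 0.0469 in edgeR's quasi-likelihood test. That fold was just past the required 1.5-fold, which is 0.585 on the log2 scale. The gene ranked 320 of 19353 by p. In 84Q+IGF-1 against 15Q the log2 fold change of Apln was 0.40 (95% confidence interval 0.12 to 0.69, adjusted p = 0.149), and in 84Q+IGF-1 against 84Q it was -0.19 (-0.47 to 0.10, adjusted p = 0.969). With the 6 libraries of both 84Q groups set against 15Q, Apln was 1.41-fold higher with an adjusted p of 0.0358, which misses the required fold.

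The Apln difference between 84Q and 15Q passed with sex as a covariate (log2 fold change 0.59, adjusted p = 0.0688) and by the DESeq2 Wald test (adjusted p = 0.00165), which called 2.18% of the genes it tested. It no longer passed when the 3 libraries with choroid plexus counts were left out (log2 fold change 0.45, adjusted p = 0.486), which leaves 1 library of 15Q and 2 of 84Q, or when 15Q replicate 3 (adjusted p = 0.176) or 84Q replicate 3 (adjusted p = 0.152) was left out. Without a filter on low counts its log2 fold change was 0.58, just under the required fold. Without 15Q replicate 1 or 84Q replicate 1 the adjusted p stayed under 0.1 at 0.0805 and 0.0840, but the log2 fold change was 0.52 and 0.55. Without the choroid plexus libraries the log2 fold change of Apln in 84Q+IGF-1 against 15Q was 0.18 (adjusted p = 0.835). The part of the choroid plexus and other tissue RNA in the Apln difference was not tested.

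**Figure D1:**
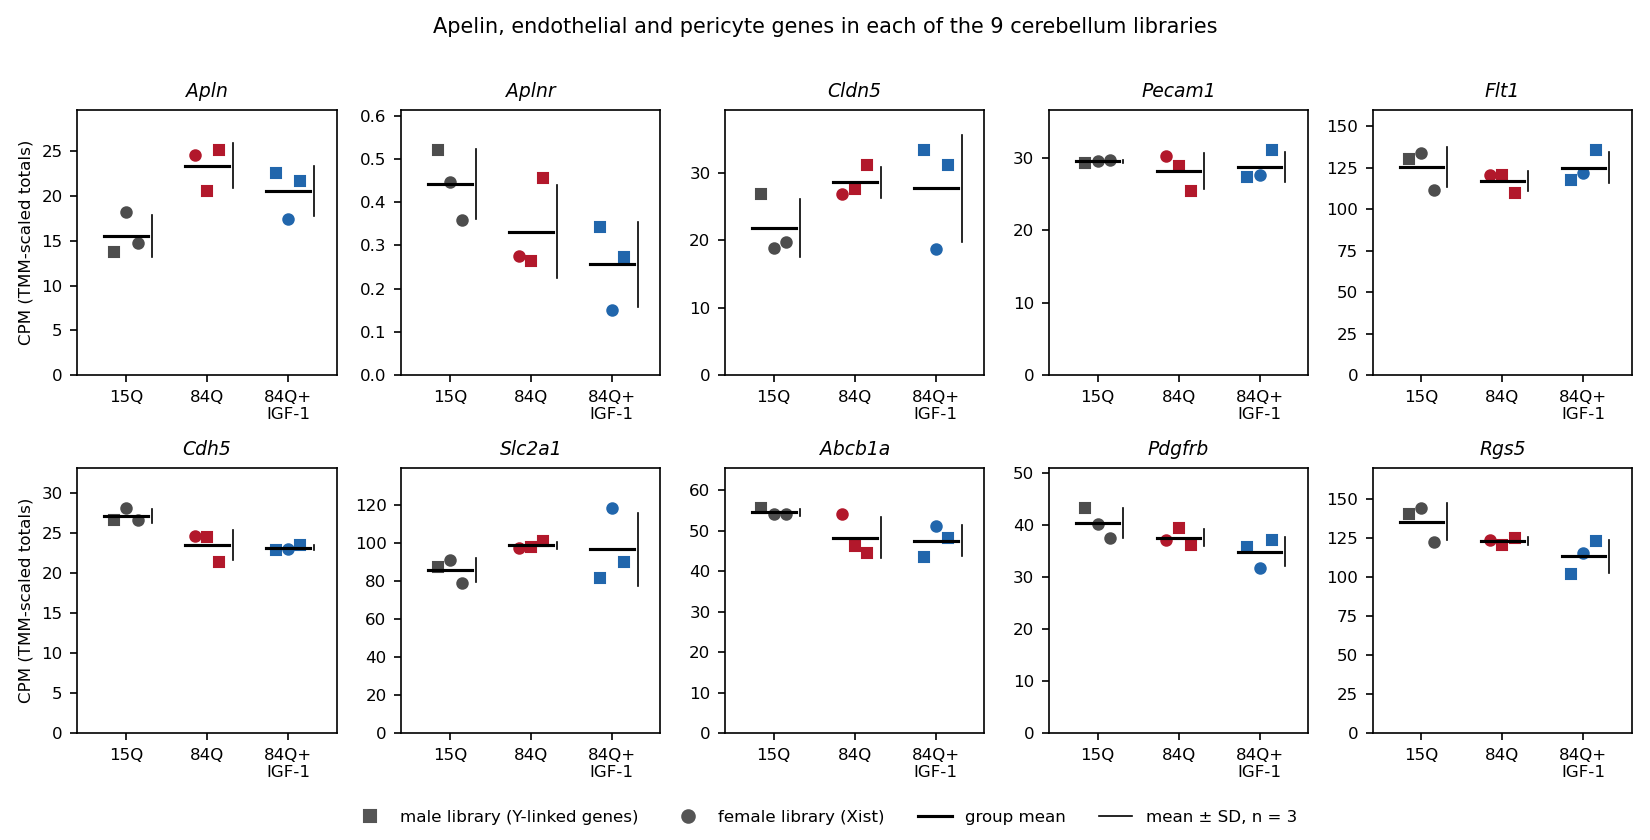
Level of each of the 10 genes in CPM in every library of 15Q, 84Q and 84Q+IGF-1, with squares for male and circles for female libraries, a thick line at the group mean and a thin bar for the SD of 3 libraries. All 84Q libraries lie above all 15Q libraries for Apln, Cldn5 and Slc2a1 and below them for Cdh5.

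Aplnr (ENSMUSG00000044338.9, chr2:85136225-85139923, plus strand) encodes the apelin receptor. Its counts were very low, at 14, 18 and 21 reads in 15Q, 8, 6 and 8 reads in 84Q and 8, 4 and 8 reads in 84Q+IGF-1. In CPM the libraries read 0.52, 0.45 and 0.36 in 15Q, 0.28, 0.26 and 0.46 in 84Q and 0.34, 0.15 and 0.27 in 84Q+IGF-1. The 84Q+IGF-1 libraries all lay below the 15Q libraries, whereas the 84Q range overlapped that of 15Q. The log2 fold changes against 15Q were -0.42 (95% confidence interval -1.29 to 0.45) in 84Q and -0.76 (-1.64 to 0.12) in 84Q+IGF-1, with adjusted p-values of 0.604 and 0.352. At this depth neither a decrease of more than 1.5-fold nor the lack of a change could be shown. Per unit of exon length, Apln was 42.3 ± 9.79 times as abundant as Aplnr in 15Q, 87.0 ± 20.3 times in 84Q and 102 ± 30.2 times in 84Q+IGF-1 (SD, n = 3). The 15Q range of 31.0 to 48.2 did not overlap the others, but the ratio rests on few Aplnr reads and was not tested.

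The log2 fold changes of the endothelial junction genes differed in sign, and none was called. Cldn5 (ENSMUSG00000041378.2, chr16:18776847-18778262, plus strand) encodes claudin-5, the main tight junction protein of brain capillaries. It read 26.8, 18.8 and 19.8 CPM in 15Q, 26.9, 27.6 and 31.2 CPM in 84Q, and 33.4, 18.7 and 31.1 CPM in 84Q+IGF-1. All 84Q libraries were above all 15Q libraries, by a margin of 26.9 against 26.8 CPM at the nearest pair, and 84Q+IGF-1 replicate 2 was the lowest of the 9. The log2 fold change in 84Q was 0.39 (95% confidence interval -0.02 to 0.81, adjusted p = 0.286) and in 84Q+IGF-1 it was 0.35 (-0.06 to 0.77, adjusted p = 0.36), both against 15Q. These values moved with the libraries and the model, to 0.26 and 0.18 with sex as a covariate (adjusted p = 0.307 and 0.523) and to 0.63 and 0.56 without the 3 choroid plexus libraries (adjusted p = 0.566 and 0.707). Cldn5 was the most variable of the well-read members, with a coefficient of variation of 21.7% over the 9 libraries.

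Cdh5 (ENSMUSG00000031871.9, chr8:104101625-104144511, plus strand) encodes VE-cadherin, the adherens junction protein of endothelium. It read 26.7, 28.1 and 26.6 CPM in 15Q, 24.7, 24.5 and 21.4 CPM in 84Q and 22.9, 23.0 and 23.5 CPM in 84Q+IGF-1, so that all 6 libraries of the expanded repeat lay below the 3 of 15Q. The log2 fold changes against 15Q were -0.20 (95% confidence interval -0.37 to -0.04) in 84Q and -0.23 (-0.40 to -0.06) in 84Q+IGF-1, with adjusted p-values of 0.178 and 0.156. With both 84Q groups together against 15Q the adjusted p was 0.0823 for a fold of 0.860, a size well under the required 1.5-fold, and 9.75% of all genes had an adjusted p under 0.1 in that contrast. Across all genes, 6.37% had every one of the 6 libraries below those of 15Q.

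Pecam1 (ENSMUSG00000020717.19, chr11:106654217-106750628, minus strand) encodes the adhesion molecule CD31, a general mark of endothelium. It was the steadiest of the 10 genes, with a coefficient of variation of 5.98% over 9 libraries. Its libraries read 29.3, 29.6 and 29.8 CPM in 15Q, 30.3, 28.9 and 25.4 CPM in 84Q and 27.4, 27.7 and 31.1 CPM in 84Q+IGF-1, with overlapping ranges in all comparisons. Flt1 (ENSMUSG00000029648.13, chr5:147561604-147726011, minus strand) encodes a receptor for vascular endothelial growth factor (VEGF). It read 130.4, 134.1 and 112 CPM in 15Q, 121, 121 and 109.8 CPM in 84Q and 118, 122 and 136 CPM in 84Q+IGF-1, again with overlap. The 95% confidence intervals of the log2 fold changes of Pecam1 and Flt1 in all 3 comparisons lay between -0.27 and 0.27, short of a 1.5-fold change in either direction.

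The log2 fold changes of both barrier transporters differed in sign, and neither was called. Slc2a1 (ENSMUSG00000028645.11, chr4:119108711-119137983, plus strand) encodes the glucose transporter GLUT1, which is carried by brain endothelium and also by astrocytes. It read 87.2, 91.0 and 79.1 CPM in 15Q, 97.4, 97.8 and 101 CPM in 84Q and 81.6, 118 and 90.2 CPM in 84Q+IGF-1. All 84Q libraries were above all 15Q libraries, and the 84Q+IGF-1 libraries spanned the widest range. Against 15Q its log2 fold change in the 84Q libraries was 0.20 (95% confidence interval -0.04 to 0.44, adjusted p = 0.336). Its exons overlap those of the antisense gene Gm12868 by 105 bases, but that gene had a mean of 11.7 reads per library against at least 1768 for Slc2a1. Abcb1a (ENSMUSG00000040584.8, chr5:8660077-8748575, plus strand) encodes P-glycoprotein, the drug efflux pump. It read 55.5, 54.0 and 54.1 CPM in 15Q, 54.0, 46.1 and 44.5 CPM in 84Q and 43.5, 51.1 and 48.0 CPM in 84Q+IGF-1. The log2 fold changes against 15Q were -0.17 (-0.35 to 0.00, adjusted p = 0.260) in 84Q and -0.20 (-0.37 to -0.02, adjusted p = 0.230) in 84Q+IGF-1. The ratio of Slc2a1 to Abcb1a CPM was 1.57 ± 0.11 for 15Q, 2.06 ± 0.24 for 84Q and 2.02 ± 0.25 for 84Q+IGF-1 (SD, n = 3). Its 15Q range of 1.46 to 1.69 lay below the ranges of both other groups. It joins uncalled genes whose fold changes had opposite signs. The ratio was not tested, and how often other gene pairs separate was not counted.

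In the count of separated groups, 3 of the 10 genes (Apln, Cldn5 and Slc2a1) had every 84Q library above every 15Q library and 1 (Cdh5) had every one below. Over all genes tested the shares were 11.9% and 13.5%. Of the 3, only Apln passed the test, and for Cldn5 the separation rests on 26.9 against 26.8 CPM. The upstream sequences of these 3 genes are shown because their libraries separated in the same direction. They are taken from the 250 bases before the RefSeq transcription start (GRCm38.p6), on the strand of the gene, and capitals mark matches on either strand to ACGTG, the core bound by hypoxia-inducible factors, and to GGAA, the core bound by ETS factors, which include regulators of endothelial genes. Apln is at chrX:48034854-48035103 on the minus strand, Cldn5 at chr16:18776597-18776846 on the plus strand and Slc2a1 at chr4:119108495-119108713 on the plus strand, the last one ended at its match because the GENCODE gene begins before the RefSeq start.
Apln upstream: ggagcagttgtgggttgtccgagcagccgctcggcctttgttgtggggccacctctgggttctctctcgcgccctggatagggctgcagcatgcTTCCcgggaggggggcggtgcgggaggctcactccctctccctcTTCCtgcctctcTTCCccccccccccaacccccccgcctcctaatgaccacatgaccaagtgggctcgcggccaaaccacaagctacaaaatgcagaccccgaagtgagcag
Cldn5 upstream: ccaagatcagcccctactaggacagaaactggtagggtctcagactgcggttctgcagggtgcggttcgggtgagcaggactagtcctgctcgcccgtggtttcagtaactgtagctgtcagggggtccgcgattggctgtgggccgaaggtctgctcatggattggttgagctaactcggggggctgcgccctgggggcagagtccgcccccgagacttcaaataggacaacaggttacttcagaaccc
Slc2a1 upstream: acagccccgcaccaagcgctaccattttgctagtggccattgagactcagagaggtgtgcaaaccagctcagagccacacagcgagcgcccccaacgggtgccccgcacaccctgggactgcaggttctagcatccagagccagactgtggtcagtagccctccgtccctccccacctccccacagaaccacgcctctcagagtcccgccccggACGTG

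Slc2a1 held 1 match to ACGTG, 36 bases before the RefSeq start, and no match to GGAA. Apln held 3 matches to GGAA and none to ACGTG, and Cldn5 held neither. Of 32817 RefSeq promoters of the mouse genome, 16.6% held ACGTG and 93.4% held GGAA in the 250 bases before the start. Within the same window Flt1 held 4 matches to GGAA and Rgs5 held 3, with none to ACGTG. Abcb1a held 5 and none, but its RefSeq start lies upstream of the GENCODE gene and matches none of its GENCODE transcript starts. The windows of Apln, Cldn5 and Slc2a1 therefore shared neither motif.

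Neither pericyte gene among the 10 was called in any comparison. Rgs5 (ENSMUSG00000026678.10, chr1:169655501-169695813, plus strand) encodes a regulator of G protein signaling that marks pericytes. It read 140.3, 144 and 123 CPM in 15Q, 124, 121 and 125 CPM in 84Q and 102, 115 and 123 CPM in 84Q+IGF-1. Pdgfrb (ENSMUSG00000024620.11, chr18:61045150-61085061, plus strand) encodes the receptor through which platelet-derived growth factor recruits pericytes. It read 43.3, 40.2 and 37.5 CPM in 15Q, 37.1, 39.5 and 36.2 CPM in 84Q and 35.9, 31.8 and 37.1 CPM in 84Q+IGF-1, where every library was below those of 15Q. The log2 fold changes of Rgs5 and Pdgfrb against 15Q were -0.14 and -0.10 in 84Q (adjusted p = 0.346 and 0.537) and -0.26 and -0.21 in 84Q+IGF-1 (adjusted p = 0.119 and 0.209). The 95% confidence intervals in 84Q+IGF-1 were -0.42 to -0.09 for Rgs5 and -0.38 to -0.03 for Pdgfrb, both short of a 1.5-fold decrease.

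When 84Q+IGF-1 was compared with 15Q, 5 of the 10 genes (Apln, Cdh5, Abcb1a, Pdgfrb and Rgs5) had an unadjusted p under 0.05, beside 17.7% of all genes. In 84Q against 15Q the count was 2 (Apln and Cdh5), beside 19.4% of all genes, and in 84Q+IGF-1 against 84Q it was 0, beside 4.68%. The comparisons of 84Q and of 84Q+IGF-1 with 15Q share the 3 control libraries. The 4 genes Aplnr, Cdh5, Abcb1a and Pdgfrb had every 84Q+IGF-1 library below every 15Q library, a pattern that 13.0% of all genes showed, and none of the 10 had every one above (11.7% of all genes). Between 84Q+IGF-1 and 84Q all 10 genes overlapped, where 3.96% and 4.50% of all genes had every treated library above or below. The median log2 fold change of the 10 genes was -0.10 in 84Q and -0.12 in 84Q+IGF-1 against 15Q and -0.03 between both 84Q groups, where the medians over all genes tested were between -0.01 and 0.00. The 95% confidence intervals of 84Q+IGF-1 against 84Q ran from -0.47 to 0.10 for Apln and stayed within -0.46 and 0.38 for the other 8 genes apart from Aplnr.

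**Figure D2:**
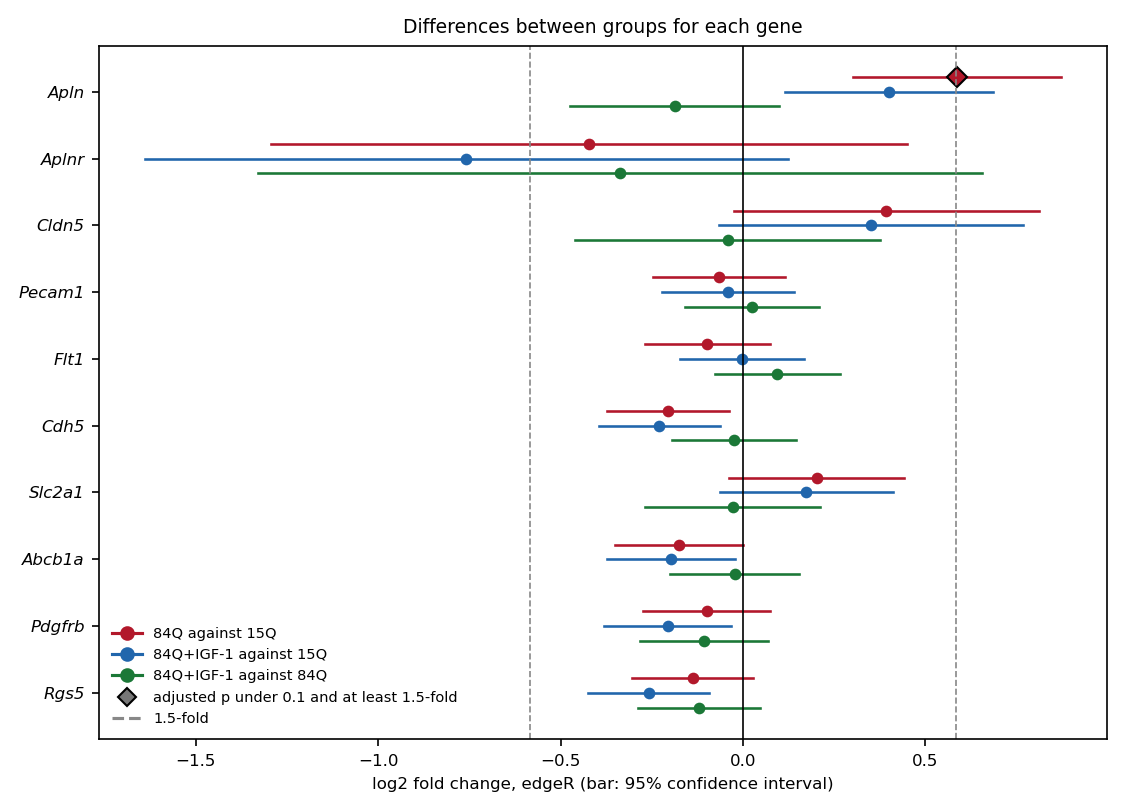
Log2 fold change of each of the 10 genes in both 84Q groups against 15Q and between the IGF-1-injected and other 84Q groups, with bars for the 95% confidence interval and dashed lines at 1.5-fold. Apln in 84Q against 15Q, at 0.59, is the only marker past both thresholds, and the Aplnr bars are the widest, from -1.64 to 0.66.

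Levels of different genes were compared in TPM, which divides the counts by the summed exon length of each gene and scales every library to the same total. Rgs5 and Slc2a1 were the most abundant, at a mean of 109.0 and 106 TPM over 9 libraries, followed by Cldn5 at 73.1 TPM. Abcb1a and Flt1 followed at 36.5 and 36.2 TPM, then Pdgfrb at 27.4, Apln at 25.1, Cdh5 at 23.3 and Pecam1 at 18.5 TPM. Aplnr closed the order at 0.37 TPM, at the 1.82 percentile of all genes tested, while Apln stood at the 62.7 percentile. Library ranges of neighbours in this order overlapped except for Cldn5 above Abcb1a and Pecam1 above Aplnr. With the longest transcript in place of the summed exons, Flt1 moved from rank 5 to rank 4 and Pecam1 from rank 9 to rank 6, so the order in the middle depends on the length used.

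**Figure D3:**
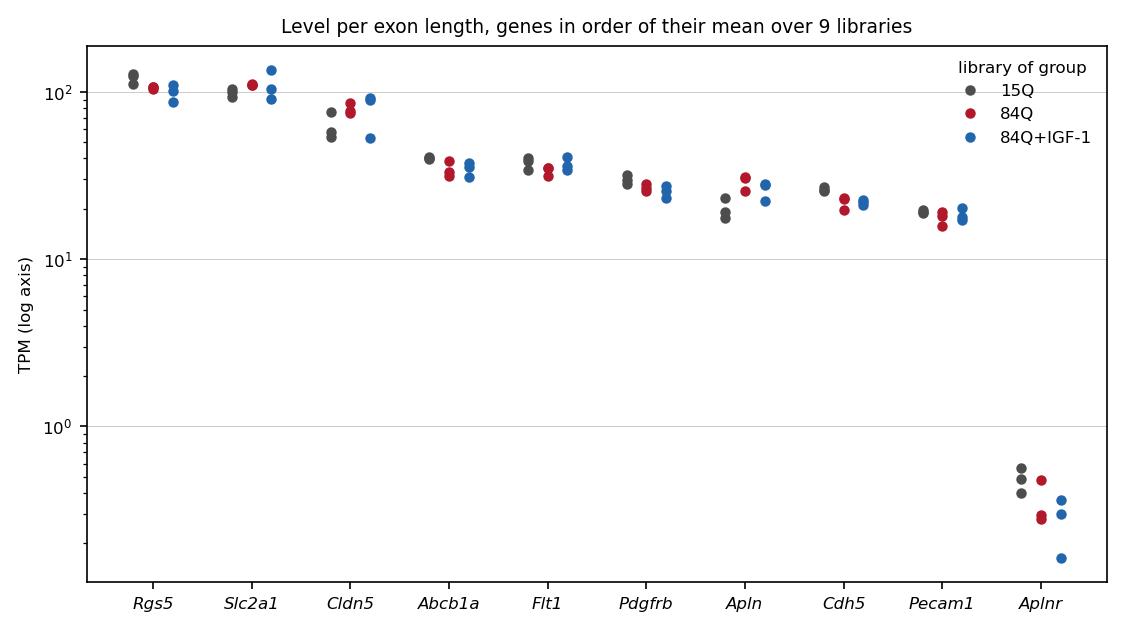
TPM of each gene on a log axis in the 9 libraries, coloured by group and ordered by the mean. The genes fall between 18.5 and 109.0 TPM on average, except Aplnr at 0.37 TPM.

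Beyond the 10 genes, 163 further genes on 12 vascular lists were examined, of which 162 had a row in the counts and 152 passed the count filter. Apela, the gene of the other apelin receptor ligand, is not analysed here. In 84Q against 15Q, 1 of the 152 was called higher and 7 lower, or 5.26%, beside 2.14% of all genes. In 84Q+IGF-1 against 15Q, 0 were higher and 10 lower, or 6.58%, beside 2.25%, and in 84Q+IGF-1 against 84Q edgeR called 0, with 14 at an unadjusted p under 0.05. With both 84Q groups against 15Q, 0 were higher and 13 lower, or 8.55%, beside 3.51% of all genes, 0.284% higher and 3.23% lower. The median log2 fold change of the 152 genes in 84Q against 15Q was -0.06. The calls were fewer without the 3 choroid plexus libraries, at 1, 5 and 5 genes in the 3 comparisons with 15Q, and over all genes they went from 414, 435 and 680 to 94, 189 and 238.

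The endothelial identity list of 34 genes, among them Cldn5, Pecam1, Flt1 and Cdh5, had 0 calls by edgeR in all comparisons. In 84Q against 15Q its median log2 fold change was 0.00, and 6 genes had an unadjusted p under 0.05, beside 19.4% of all genes. Every 84Q library lay above every 15Q library for 1 of the 34 genes and below for 4, beside 11.9% and 13.5% of all genes. The list's most abundant genes per length were S1pr1, a receptor for sphingosine phosphate, at 187 TPM, Cldn5, and Itm2a at 61.3 TPM. The list summed to 887 ± 20.6 CPM in 15Q, 851 ± 23.2 CPM in 84Q and 849.9 ± 23.8 CPM in 84Q+IGF-1 (SD, n = 3), and the highest library exceeded the lowest by 1.10-fold. Divided by that sum, Apln read 15.4, 20.1 and 17 CPM per 1000 CPM in 15Q, 28.7, 23.6 and 30.4 in 84Q and 27.3, 20.5 and 24.8 in 84Q+IGF-1, where the nearest pair was 20.5 against 20.1. The ratio was not tested and shares its libraries with the Apln values above. Of the arterial list, with Efnb2, Hey1 and Alpl, and of the venous list, with Nr2f2, Vwf and the chemokine-binding receptor Ackr1, edgeR called no gene in any comparison, and the medians in 84Q against 15Q were 0.06 over 9 genes and -0.18 over 7 genes, with 0 and 1 gene at an unadjusted p under 0.05.

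Among 17 genes of blood-brain barrier transport, Mfsd2a, the carrier of docosahexaenoic acid into the brain, was called higher in 84Q than in 15Q. It read 5.95, 8.24 and 5.83 CPM in 15Q, 10.6, 10.9 and 9.23 CPM in 84Q and 7.25, 10.5 and 7.98 CPM in 84Q+IGF-1, and its log2 fold change in 84Q was 0.62 ± 0.17 (SE, adjusted p = 0.0865). That call was lost in 5 of 9 fits that left out 1 library, those without 15Q replicate 1 or 3 or without any of the 84Q replicates. Without the 3 choroid plexus libraries it was 0.28 (adjusted p = 0.759). The other 16 transport genes, including Slc7a5 and Slc3a2, the parts of the large amino acid carrier at 83.7 and 144 TPM, were not called, and the list's median was -0.15 in 84Q and lower than 0 for 13 of 17 genes.

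The apelin signaling list held the receptor's G proteins Gnai1, Gnai2 and Gnaq, at 230, 176 and 141 TPM. Of the 21 genes tested, Apln was called higher in 84Q against 15Q and 1 other gene lower, beside 0.238% and 1.90% of all genes. The list's median was -0.02. In 84Q+IGF-1 and in both 84Q groups together against 15Q, 0 genes of the list were called higher and 1 lower.

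Of 13 tip cell genes tested, including Unc5b, Mcam and Trp53i11 at 112, 72.3 and 71.7 TPM, Apln was the only call in 84Q against 15Q, and none was called in 84Q+IGF-1 against 15Q. In the hypoxia list of 19 genes, which includes Epas1, Vegfa and Egln1 at 135, 119 and 119 TPM beside Slc2a1, Apln was again the only call and the median was 0.04. Of 20 VEGF, PDGF and angiopoietin ligands and receptors edgeR called 0, with 0, 4 and 2 at an unadjusted p under 0.05 for 84Q over 15Q, treated 84Q over 15Q and 84Q+IGF-1 over 84Q, and Vegfa itself read between 118 and 137 CPM in all libraries.

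Genes of the cells around the endothelium are on the pericyte, arterial smooth muscle and fibroblast lists. The pericyte list of 16 genes holds Rgs5, Vtn at 142 TPM and Mcam. Its median log2 fold change was -0.18 in 84Q and -0.23 in 84Q+IGF-1 against 15Q, beside -0.002 and -0.005 over all genes. In each, 14 of 16 genes were below 0. Anpep was the only call, lower in both, beside 1.90% and 2.06% of all genes called lower. Anpep, an aminopeptidase, read 7.70, 9.46 and 11.8 CPM in 15Q, 6.11, 3.87 and 5.36 CPM in 84Q and 5.02, 5.31 and 5.65 CPM in 84Q+IGF-1, with log2 fold changes of -0.92 (adjusted p = 0.0305) and -0.86 (adjusted p = 0.0369). Both calls were lost without 15Q replicate 2 and without 15Q replicate 3, and the call in 84Q+IGF-1 also without 84Q+IGF-1 replicate 1. Without the choroid plexus libraries the 84Q call was lost (-0.71, adjusted p = 0.283) and the 84Q+IGF-1 call was kept. With both 84Q groups against 15Q, Ifitm1 was also called lower (log2 fold change -1.21, adjusted p = 0.0787), on at most 68 reads in a library, and lost in 6 of 9 fits without 1 library, without the choroid plexus libraries (-1.46, adjusted p = 0.388) and with sex as a covariate (-0.91, adjusted p = 0.180). The pericyte list summed to 445 ± 24.4 CPM in 15Q, 392 ± 12.8 CPM in 84Q and 374 ± 21.2 CPM in 84Q+IGF-1 (SD, n = 3). Divided by the endothelial sum, it was 0.482 to 0.514 in 15Q, 0.457 to 0.462 in 84Q and 0.426 to 0.451 in 84Q+IGF-1. The groups did not overlap, but the ratio was not tested, and how often other pairs of lists separate was not counted. The pericyte sum includes Mcam, which is also on the tip cell list, and Anpep. Skeletal muscle, epidermis and intestinal sums were also higher in every 15Q library, and their part was not tested. Rgs5 and Pdgfrb over Pecam1 and Cdh5 were at 3.11 ± 0.23, 3.13 ± 0.28 and 2.86 ± 0.10, where the 15Q range overlapped both others. Every 84Q+IGF-1 library was below every 84Q library, by 2.933 against 2.935 at the nearest pair, and this ratio was not tested either.

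In the arterial smooth muscle list of 7 tested genes, with Acta2 at 21.7 TPM and Des at 16.8 TPM, the smooth muscle myosin gene Myh11 was called lower in 84Q, and edgeR called 0 genes in the other comparisons, with 2 to 4 at an unadjusted p under 0.05. It read 24.8, 21.4 and 24.1 CPM in 15Q, 16.7, 16.4 and 12.5 CPM in 84Q and 13.4, 17.1 and 18.9 CPM in 84Q+IGF-1, with a log2 fold change in 84Q of -0.62 ± 0.14 (SE, adjusted p = 0.0452). The call was lost without replicate 1 or 3 of 15Q or replicate 3 of 84Q, and without the choroid plexus libraries (-0.54, adjusted p = 0.524). The summed list read 70.3 to 76.2 CPM in 15Q, 55.0 to 60.3 CPM in 84Q and 58.6 to 62.2 CPM in 84Q+IGF-1. As given above, every 15Q library also had higher skeletal muscle, epidermis and intestinal sums than any library of both 84Q groups. The part of such tissue in the Myh11 call and in these sums was not tested.

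The list of perivascular and meningeal fibroblast genes, which includes Mgp at 24.1 TPM and Aldh1a2 at 14.6 TPM, had the most calls of the 12 vascular lists. Of its 13 genes, 3 were called lower in 84Q, 6 in 84Q+IGF-1 and 8 with both 84Q groups against 15Q, beside 1.90%, 2.06% and 3.23% of all genes, and all 13 were below 0 in each. The list's medians were -0.67, -1.03 and -0.87. The skeletal muscle, epidermis and intestinal sums given above were also lower in every library of both 84Q groups than in 15Q, and their part in these calls was not tested. The collagen gene Col1a1 read 21.4, 26.8 and 29.4 CPM in 15Q, 16.4, 18.0 and 14.6 CPM in 84Q and 12.6, 11.1 and 13.3 CPM in 84Q+IGF-1, with log2 fold changes against 15Q of -0.67 ± 0.12 (SE, adjusted p = 0.0206) and -1.07 ± 0.13 (adjusted p = 0.000813). The first of these was lost without 15Q replicate 3 and without the 3 choroid plexus libraries, where it was -0.78 (adjusted p = 0.103), and the latter held in all 9 fits without 1 library. Dcn and Col1a2, a matrix proteoglycan and the partner chain of Col1a1, were called in 84Q+IGF-1 at -1.03 and -0.64, both lost without 15Q replicate 3, and Dcn also without the choroid plexus libraries (-0.96, adjusted p = 0.255). Slc22a6, an organic anion carrier, and Lum were called in 84Q at -0.90 and -0.89. Slc22a6 was lost without 15Q replicate 2 or 3 or 84Q replicate 2 or 3, and Lum without any 15Q replicate or 84Q replicate 1 or 3. Without the choroid plexus libraries they were -0.49 and -0.80 (adjusted p = 0.640 and 0.563).

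In the list of endothelium outside the brain, Fabp4, a fatty acid carrier of peripheral endothelium and fat, was read 18, 50 and 95 times in 15Q, 4, 1 and 1 times in 84Q and 0 times in each 84Q+IGF-1 library, and was called lower in both comparisons (adjusted p = 0.00872 and 0.00155, the former lost without the 3 choroid plexus libraries together, at a log2 fold change of -3.49 and an adjusted p of 0.225). The fatty acid receptor gene Cd36 was called lower in 84Q+IGF-1 (log2 fold change -2.17, adjusted p = 0.0260), a call lost without 15Q replicate 3 and without the choroid plexus libraries (-2.05, adjusted p = 0.314). Car4, Plvap and Tcf15 of the same list, at 255, 31.7 and 3.79 TPM, were not called. Car4 read above Rgs5, the most abundant of the 10 genes at 109 TPM. Its RNA here therefore cannot be assigned to endothelium outside the brain. The Fabp4 and Cd36 calls ran beside those of non-vascular tissue. All 6 skeletal muscle genes and all 5 tested intestinal genes were called lower in both 84Q groups against 15Q, as were 3 and 4 of 5 epidermis genes and 3 of 5 tested liver genes, and Krt5, Fabp1, Fabp2 and Alpi had 0 counts in all 3 84Q libraries. The liver list, which shares Ttr with the choroid plexus list, summed to 24.4 to 365 CPM in 15Q, 4.05 to 835 CPM in 84Q and 3.58 to 21.8 CPM in 84Q+IGF-1. Anpep is also a gene of the intestinal brush border, and Cd36 of skeletal muscle. The part of such tissue in these calls was not tested. Genes with counts near 0 in both 84Q groups, Fabp4 among them, could pass the count filter only through the 15Q libraries. Lower was then the only call open to them against 15Q.

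**Figure D4:**
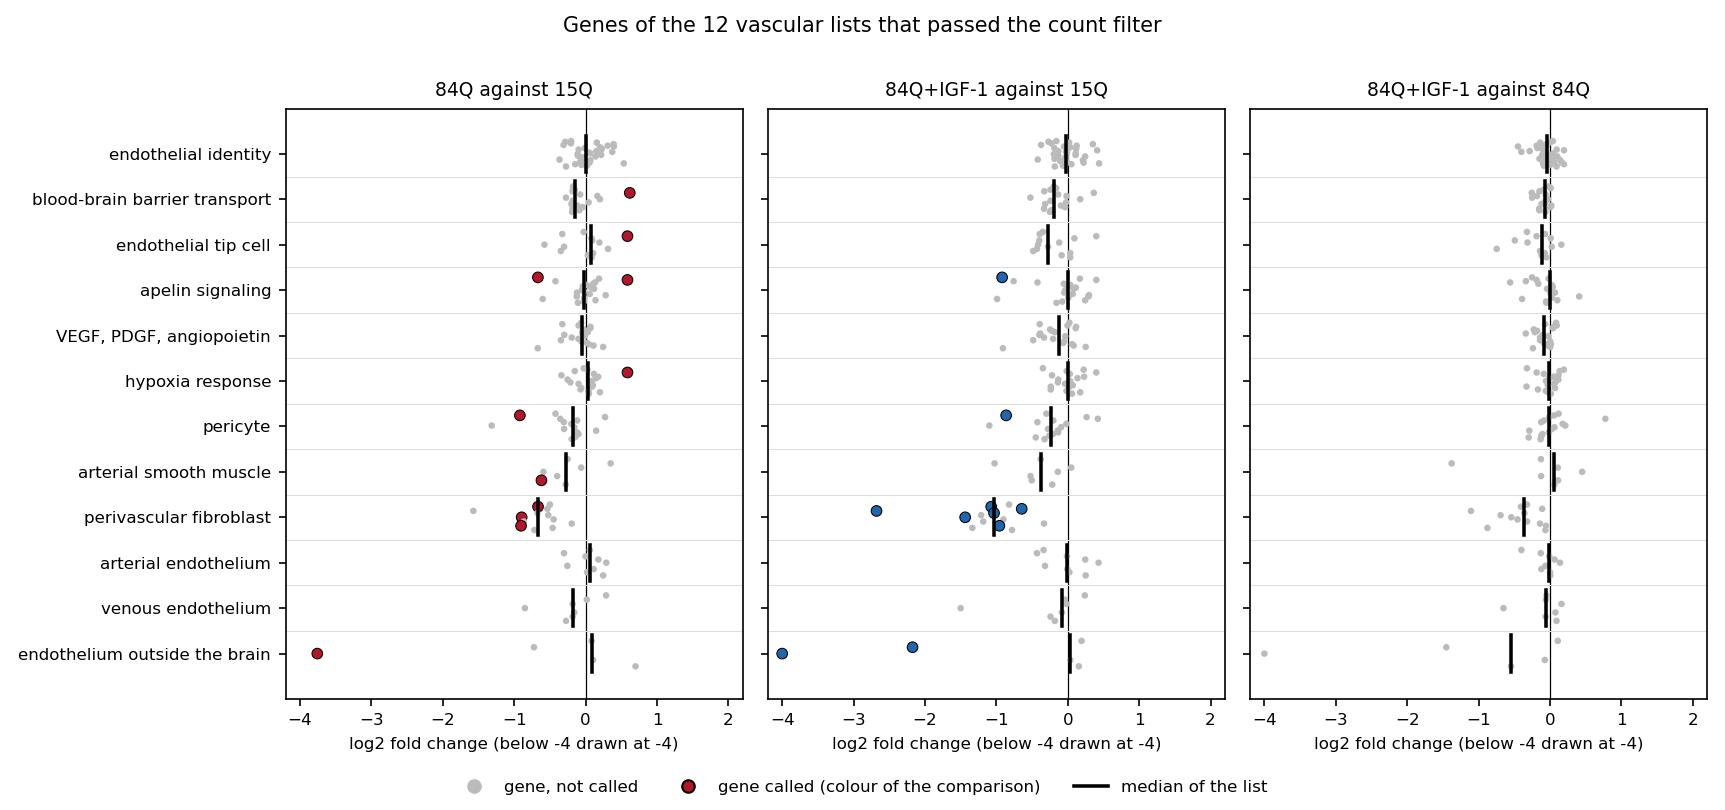
Log2 fold changes of the tested genes on 12 vascular lists in 3 comparisons, with called genes in colour and a black bar at each list's median. The endothelial identity list centres near 0, the fibroblast list lies at -0.67 and -1.03 against 15Q, and no gene is called between both 84Q groups.

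**Figure D5:**
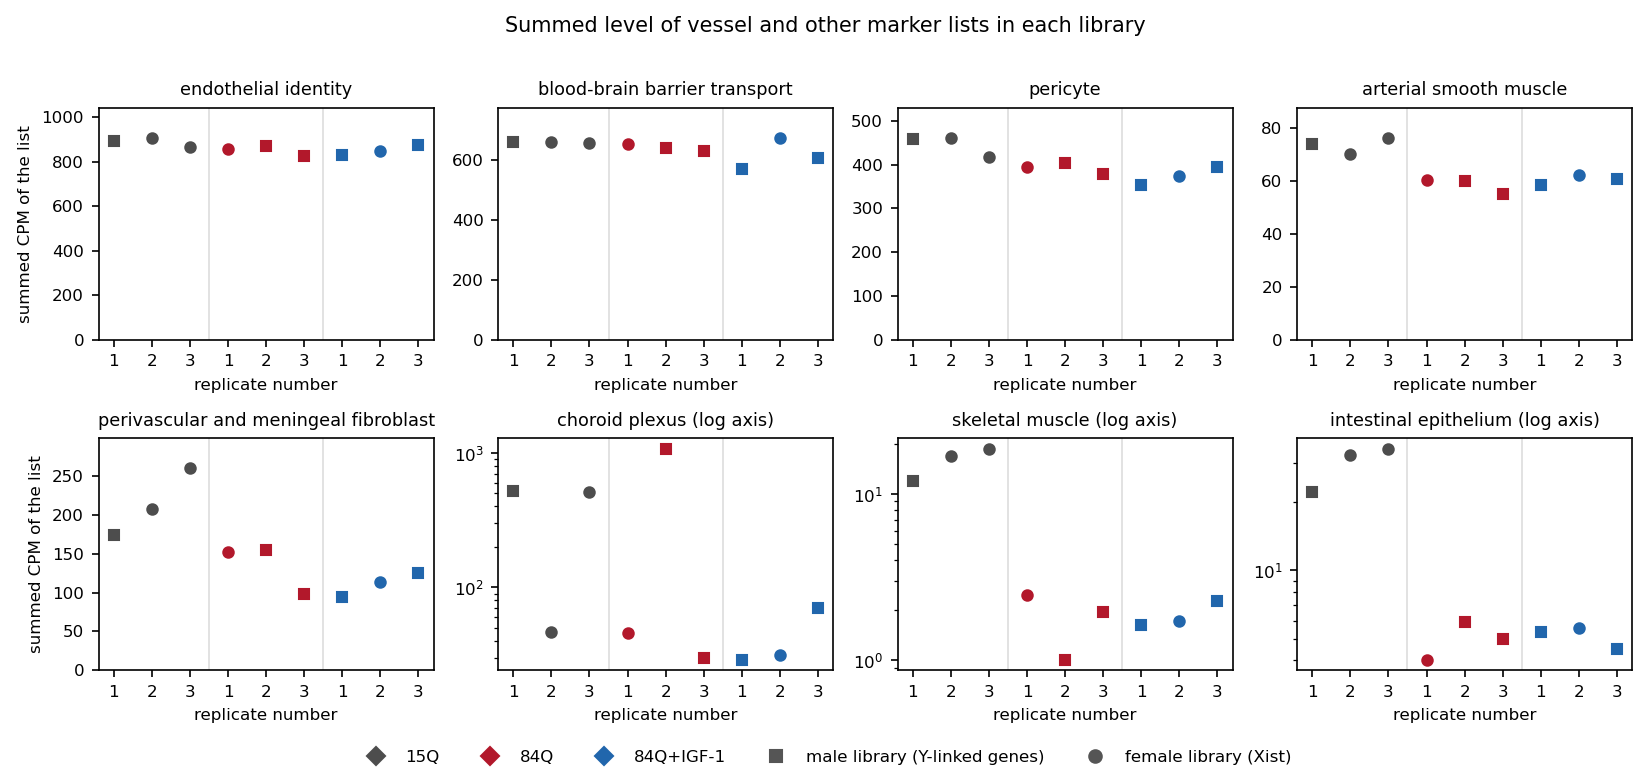
Summed CPM of 5 vascular lists from 0 and of 3 other marker lists on log axes in each library, by group, with squares for male and circles for female libraries. The endothelial sum stays within 1.10-fold over all libraries, the choroid plexus sum stands out in 15Q replicates 1 and 3 and 84Q replicate 2, and skeletal muscle and intestinal sums are highest in all 15Q libraries.

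Among the remaining marker lists edgeR called no gene in any comparison for choroid plexus (11 of 12 genes at an unadjusted p under 0.05 in 84Q+IGF-1 against 15Q), red blood cell, granule cell, Purkinje cell, microglia, astrocyte, oligodendrocyte or sex genes. Red blood cell genes summed to between 22.9 and 211 CPM with the highest value in 15Q replicate 2. Microglia genes summed to 142 to 168 CPM in 15Q, 170.3 to 209 CPM in 84Q and 152 to 165 CPM in 84Q+IGF-1. All 6 had positive log2 fold changes in 84Q against 15Q, and 4 had an unadjusted p under 0.05, beside 19.4% of all genes. In 84Q+IGF-1 against 84Q all 5 oligodendrocyte genes were below 0, and 4 had an unadjusted p under 0.05, beside 4.68%. Astrocyte genes, of cells that also carry GLUT1, summed to 1754 to 2298 CPM in 15Q, 2018 to 2279 CPM in 84Q and 2027 to 2116 CPM in 84Q+IGF-1, and oligodendrocyte genes to between 2773 and 4658 CPM over all libraries.

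Sex moved with Cldn5. The 5 male libraries read between 26.8 and 33.4 CPM and the 4 female libraries between 18.7 and 26.9 CPM, and within each group every male library was above every female library. The difference of male minus female was 0.45 ± 0.10 on the log2 scale (SE, unadjusted p = 0.000931) in the fit with group and sex together, and it ranked 52 of 19353, but its adjusted p was 0.332. In that fit 11 genes had an adjusted p under 0.1 and 8.78% of genes an unadjusted p under 0.05. The 15Q group held 1 male library and the others 2 each. For Apln the male minus female difference was -0.01 (95% confidence interval -0.26 to 0.25, adjusted p = 0.994), and the other 8 genes had unadjusted p-values of 0.0504 or more. This comparison was added after the values were seen.

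The 5 genes whose log2 CPM ran most closely with Apln over the 9 libraries, among 15936 genes with a mean of at least 1 CPM, were Gm10359 (Pearson r = 0.98), Cox4i1 (0.96), Ndufa13 (0.96), Gm12671 (0.95) and Ckmt1 (0.95). Cox4i1 and Ndufa13 encode subunits of the respiratory chain and Ckmt1 a mitochondrial creatine kinase. These points share libraries, depth and group, and with Spearman's rank measure only Ndufa13 remained among the first 5. Cox4i1 read 168 to 181 CPM in 15Q, 197 to 217 CPM in 84Q and 186 to 213 CPM in 84Q+IGF-1. Of the other members, Cldn5 had the highest r with Apln (0.61), exceeded by 2222 genes, and Cdh5 and Abcb1a the lowest, at -0.68 and -0.66.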

How the data were processed

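Cerebellar total RNA from 9 mouse libraries was prepared with a strand-specific kit and sequenced by the authors as paired reads. The authors trimmed reads with Trimmomatic 0.36, aligned them with HISAT2 2.2.0 to GRCm38.p6 (mm10) and deposited unnormalized read counts per gene from featureCounts, and the annotation and strand setting are not given in the sources used here. Symbols, exon lengths and positions were taken from GENCODE vM21, which matched 37681 of 37816 identifiers. Counts were filtered with filterByExpr, scaled by TMM and fitted in edgeR 4.0.16 (R 4.3.3) with a quasi-likelihood model of group means over all 9 libraries. P-values were adjusted by Benjamini and Hochberg over 19353 genes, and a call required both an adjusted p under 0.1 and a change of 1.5-fold or more. Intervals are 95% and come from the same fit. CPM used TMM-scaled totals. Total counts were 17482654 to 58269196, so 3 counts correspond to between 0.0515 and 0.172 CPM. On simulated counts for 84Q against 15Q over 19353 genes, 74% of 100 genes changed 2-fold and 95% of 100 genes changed 4-fold were called. Of the unchanged genes, 13 were called.

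The 10 genes and the 12 vascular and 11 other marker lists, beside a list of sex genes, were chosen with earlier results of these data known. Genes named from lists were the called ones with the highest mean CPM, at most 3 per comparison, and the 3 with the highest mean TPM. Alternatives were DESeq2 1.42.0, its size factors, no count filter, other thresholds, sex or replicate number in the model, fewer groups, and leaving out each library. Leaving out the 3 libraries with choroid plexus counts together and the test of sex were added after seeing the data. Motif counts used RefSeq promoters, which held 6 of the 10 genes. The values of 1 gene on the vascular lists are not reported here, although it is counted in the list totals.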

Additional observations from a re-analysis of the deposited data

How the results depend on the processing

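Depth limited Aplnr most, with at most 21 reads in a library, and all calls rest on 3 libraries per group. The higher Apln in 84Q than in 15Q kept its direction under every alternative run. It stayed past the threshold with the DESeq2 test, DESeq2 size factors, sex in the model and a fit of the compared groups alone. It missed the required fold without a count filter (log2 fold change 0.58, with 0 of the 10 genes then called). Without the 3 choroid plexus libraries, an alternative chosen after seeing the data, it was 0.45 with 0 of the 10 genes called. Leaving out 1 library gave 0.52 to 0.72, with 0 to 1 of the 10 genes called. The call was lost without 15Q replicate 1, 15Q replicate 3, 84Q replicate 1 or 84Q replicate 3. With both 84Q groups against 15Q, Apln (0.49) and Cdh5 made 2 calls where no fold was required, and leaving out 1 library gave 0.42 to 0.62 for Apln and 0 to 1 calls, the 1 call being Apln without 15Q replicate 2.

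Same-numbered libraries of different groups did not deviate together, with correlations of -0.309 to 0.0788, so the numbers were not taken as pairs. With a replicate block the Apln difference between 84Q and 15Q was 0.58 (adjusted p = 0.117), 0 of the 10 genes were called and 4 of the 152 wider vascular genes were called, against 8 without the block. The calls of Myh11, Slc22a6 and Lum in 84Q and of Ifitm1 in both 84Q groups (adjusted p = 0.117, 0.116, 0.169 and 0.151) were among those lost.

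The 8 calls among the 152 wider genes in 84Q against 15Q became 4 at an adjusted p under 0.05, 14 with no required fold, 1 without the choroid plexus libraries and 1 to 12 without 1 library. They were 1 without 15Q replicate 3, 3 without 84Q replicate 3 and 4 without 15Q replicate 2. The 10 calls in 84Q+IGF-1 against 15Q became 16 with no required fold, 19 without a count filter, 5 without the choroid plexus libraries and 4 to 14 without 1 library, the 4 without 15Q replicate 3. The 0 calls in 84Q+IGF-1 against 84Q became 4 without a count filter and stayed 0 without any 1 library. The 13 calls of both 84Q groups against 15Q became 27 with no required fold, 20 without a count filter, 5 without the choroid plexus libraries and 5 to 19 without 1 library, the 5 without 15Q replicate 3. Over all genes the 414 calls in 84Q against 15Q became 243 at an adjusted p under 0.05, 928 with no required fold, 1025 without a count filter, 242 with the replicate block and 94 without the choroid plexus libraries. The 435 in 84Q+IGF-1 became 711 with no required fold, 1284 without a count filter and 189 without the choroid plexus libraries, and the 680 of both groups became 1886, 1568 and 238. The causes were not tested.

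Small uncalled differences changed sign. In 84Q+IGF-1 against 84Q, leaving out 1 library gave -0.19 to 0.18 for Cldn5, -0.042 to 0.079 for Pecam1, -0.085 to 0.012 for Cdh5, -0.20 to 0.080 for Slc2a1 and -0.079 to 0.069 for Abcb1a, and without the choroid plexus libraries Cdh5 was 0.0063. Against 15Q, Pecam1 in 84Q ran from -0.12 to 0.0037, Flt1 in 84Q+IGF-1 from -0.076 to 0.052 and Flt1 in both 84Q groups from -0.12 to 0.0050. Flt1 in 84Q+IGF-1 against 15Q was 0.0066 by DESeq2, 0.00044 with DESeq2 size factors, 0.00047 with the replicate block and 0.0020 in the fit of the compared groups alone. That fit gave no value for both 84Q groups together.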
